A study of Homo sapiens with 30 samples.

Results

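Cells mutated at 2 CTCF sites of the NOTCH1 locus, S4 and S5, were compared with unedited cells through the contacts of another site, S2. The comparison rests on 4 of the 30 4C-seq libraries of the study, namely 2 libraries of the S4-S5 mutant and 2 of unedited (WT) cells, all made with S2 as the viewpoint. The libraries were chosen by their titles, and the measurements by position, as the DpnII fragment ends of chromosome 9 that lie over 5 kb from the S2 viewpoint centre (hg19, chromosome 9, position 139385872). These were 429711 of 429740 ends in each library. Of them, 3240 ends lie within 500 kb of the viewpoint and are called near-cis here, and 426471 lie farther away on the same chromosome and are called far-cis.

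All cells were K562, an established human line from a chronic myelogenous leukemia, whose labels give bone marrow as the tissue. The genotypes were WT, S4-S5 Mutant and, as further references at the same viewpoint, S2 Mutant, S4 Mutant and S5 Mutant, with 2 libraries each, and no allele beyond the named sites is given. S2 itself was not among the mutated sites of the S4-S5 mutant. The study's text describes the sites as depleted of CTCF, and counts of fragment ends do not check the mutations themselves. The kind of mutation, whether a mutant was 1 clone or a pool, the position of S5 and what the 2 libraries of a genotype share were not given in the sources used here. The p-values below therefore measure only the spread between libraries, which may be technical.

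CTCF binds DNA at oriented motifs and stops the cohesin complex as it extrudes chromatin loops, so that pairs of CTCF sites often become loop anchors and domain boundaries. NOTCH1 encodes a transmembrane receptor that is cleaved upon ligand binding and whose intracellular part then acts as a transcriptional coactivator in the nucleus, with roles in blood cell fate. In 4C-seq, crosslinked chromatin is cut and religated, and fragments joined to 1 chosen viewpoint are amplified and counted, which gives the contacts of that viewpoint along the chromosome.

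From the tables, the centre of the NOTCH1 promoter viewpoint lies at 139443268, 57.4 kb telomeric of S2, and that of the S4 viewpoint at 139523746, 137.9 kb telomeric of S2. The promoter and S4 are 80.5 kb apart. NOTCH1 lies on the minus strand, so transcription from its promoter runs towards the centromere, the side on which S2 lies. The 250 bases before the NOTCH1 start, from RefSeq on GRCh38.p14 at chr9:136546049-136546298, minus strand, are shown because the promoter is the element whose contact with S2 was measured. The line is all in lower case since it holds none of the searched sites, which would be in capitals.

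NOTCH1 promoter: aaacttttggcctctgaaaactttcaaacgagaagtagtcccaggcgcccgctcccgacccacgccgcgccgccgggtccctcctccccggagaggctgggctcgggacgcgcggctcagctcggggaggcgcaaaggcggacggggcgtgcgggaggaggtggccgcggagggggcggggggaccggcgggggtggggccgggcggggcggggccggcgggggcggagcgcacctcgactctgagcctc

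The stretch is 76% G and C. The sites searched were GATC, cut by DpnII, which sets the fragments counted here, and CATG and GTAC, cut by NlaIII and CviQI, one of which made the second cut. Each reads the same on both strands. GATC is in 41.7% of 35116 RefSeq promoter windows of 300 bases, CATG in 54.9% and GTAC in 29.8%. Among 13 such windows of NOTCH1 and 9 neighbouring protein-coding genes, 0 held GATC, 5 held CATG and 1 held GTAC. In the reference the printed stretch thus has no fragment end of its own, and contacts of the promoter were summed over windows around its viewpoint centre.

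The WT libraries had 1798253 and 2326487 reads on chromosome 9 and the S4-S5 mutant libraries 5178595 and 8008761. Outside the 5 kb around the viewpoint, near-cis totals were 499045 and 653924 reads in WT and 1700884 and 2691302 in the mutant. These totals set the counting error, which is far below the spread between the mutant libraries. Reads of 4C libraries carry no molecular identifier, so intervals from counts would cover counting error only. At single fragment ends, the 2 mutant libraries differed by 21.8 times the variance that counting gives (chi-square per degree of freedom), and the 2 WT libraries by 1.74 times. Both WT libraries also stood apart from all 8 mutant libraries in the share of reads near the viewpoint and in the number of fragment ends reached. Each of these values is given below for the single mutants too.

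A larger share of the contacts of S2 lay close to it in the S4-S5 mutant. Of the chromosome 9 reads outside the mask, 69.98% lay within 500 kb in both WT libraries, with 95% Wilson intervals that lay between 69.9 and 70.1%. In the S4-S5 mutant the share was 86.2% and 86.8%, above both WT libraries, a difference of 0.31 on the log2 scale. The S4 mutant libraries had 87.5% and 87.6%, those of the S5 mutant 87.8% and 88.2%, and those of the S2 mutant 81.6% and 82.1%. All 4 mutant genotypes thus exceeded WT in this share. With 2 libraries against 2, the exact two-sided permutation test cannot give a p below 0.333, so region shares are described by their values and the spread between libraries.

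Within 500 kb, a larger share of the reads of the S4-S5 mutant lay between S2 and the NOTCH1 promoter and a smaller share on both outer flanks. Shares sum to 100%, so a higher share in one region lowers the others. The S2-to-promoter stretch took 24.5% of near-cis reads in each WT library and 34.9% and 35.7% in the mutant libraries, a ratio of 1.44 (0.53 on the log2 scale). The groups did not overlap, and the difference was many times the spread of either group (SD 0.541 percentage points in the mutant and smaller in WT, n = 2 each). The flank from 100 to 500 kb on the centromeric side held 10.6% and 10.7% of near-cis reads in WT and 5.89% and 5.98% in the mutant, 1.79 times lower. The corresponding telomeric flank, from 100 kb beyond S4 out to 500 kb from S2, held 8.99% ± 0.00556 (SD, n = 2) in WT and 5.39% and 5.20% in the mutant, 1.70 times lower.

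The regions in between differed less. The 5 to 100 kb centromeric of S2 held 15.8% ± 0.0348 (SD, n = 2) of reads in WT and 13.9% ± 0.491 in the mutant, a log2 difference of -0.18 that turned to 0.12 when libraries were scaled to their chromosome 9 totals. The stretch from the promoter to S4 held 20.2% ± 0.00448 in WT and 18.3% ± 0.347 in the mutant, and that difference of -0.14 turned to 0.16 under the same scaling. The 100 kb telomeric of S4 held 19.9% ± 0.00352 in WT and 21.3% ± 0.324 in the mutant, and this difference of 0.10 was positive under every scaling tried. In each of the 3 regions the libraries of the groups did not overlap on the near-cis scale.

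**Figure D1:**
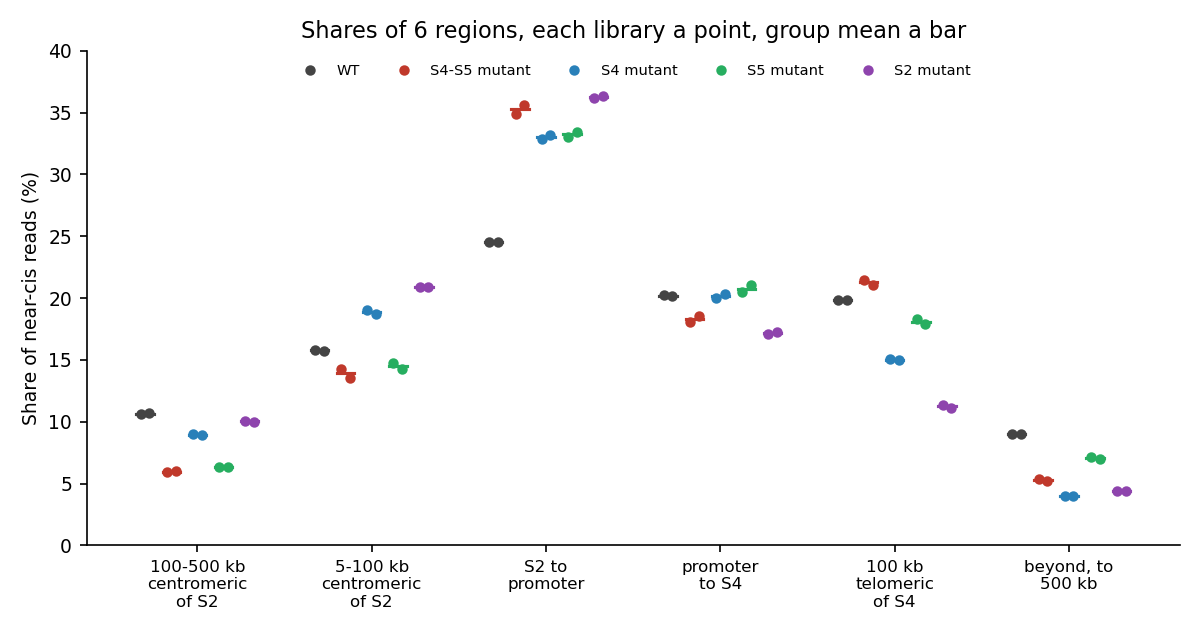
Share of near-cis reads (percent, y axis) in 6 regions along chromosome 9 (x axis, centromere on the left) for the 10 libraries of the S2 viewpoint, each a point, with the group mean as a bar. The S4-S5 mutant lay above WT from S2 to the promoter (35.3% against 24.5%) and below it on both outer flanks, and it was the only mutant above WT in the 100 kb telomeric of S4.

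Among the mutants, seen from S2, the S4-S5 mutant had the highest share on the far side of S4. In the 100 kb telomeric of S4 the S4 mutant held 15.03% of near-cis reads, the S5 mutant 18.1% and the S2 mutant 11.2% (means of 2 libraries), all below WT, whereas both S4-S5 libraries lay above WT at 21.5% and 21.0%. On the centromeric outer flank the S4-S5 mutant (5.94%) was closest to the S5 mutant (6.36%) and farther from the S4 mutant (8.95%). On the telomeric outer flank it lay between the S4 mutant (3.98%) and the S5 mutant (7.03%). In the S2-to-promoter stretch all mutants were high, at 33.0% for S4, 33.2% for S5 and 36.3% for S2. The ratio of telomeric to centromeric reads was 2.78 and 2.79 in the WT libraries and 3.96 and 4.12 in the S4-S5 mutant, while the means were 2.597 for the S4 mutant, 3.796 for S5 and 2.23 for S2.

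On the promoter side, of the bands examined, the first was higher in the mutant and the second was not. The band from 5 to 25 kb telomeric of S2 held 17.3% and 17.2% of near-cis reads in WT and 27.8% and 28.2% in the mutant, 1.62 times as much. The next band, from 25 to 50 kb, held 5.71% and 5.74% in WT and 5.44% and 5.77% in the mutant, and here the groups overlapped. On the centromeric side, the band from 5 to 25 kb held 5.97% and 5.95% in WT and 6.73% and 6.33% in the mutant. The short-range difference was thus larger on the side of NOTCH1. In the same telomeric band the means were 25.5% for the S4 mutant, 21.5% for S5 and 28.8% for S2.

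Not all fragment ends of that band took part. Of its 72 ends, 69 had a read in at least 1 of the 4 libraries, and of these 34 were higher in both mutant libraries than in both WT libraries and 27 were lower. Over all near-cis ends with a read, 615 of 2011 were higher in this sense (30.6%) and 1191 lower (59.2%), so the band held a larger share of higher ends than the near-cis region as a whole. Its 10 most covered ends carried 52.7% of its reads in WT and 57.2% in the mutant, and 5 ends were in both lists. From 25 to 57 kb, 22 of 77 covered ends were higher and 46 lower, near the shares over all near-cis ends. The summed share of reads there was 7.25% in WT and 7.26% in the mutant.

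Of these distance bands, the one from 100 to 200 kb on the centromeric side differed most. That band held 5.84% and 5.85% of near-cis reads in WT and 2.26% and 2.39% in the mutant, a log2 difference of -1.33. There the S4 mutant had a mean of 3.85%, S5 3.17% and S2 5.55%. The telomeric band at the same distance, which holds S4, differed little, at 25.5% ± 0.0804 in WT and 25.8% ± 0.0373 in the mutant. The share of near-cis reads within 50 kb of S2 on either side was 34.1% in both WT libraries and 43.7% and 43.8% in the mutant libraries.

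**Figure D2:**
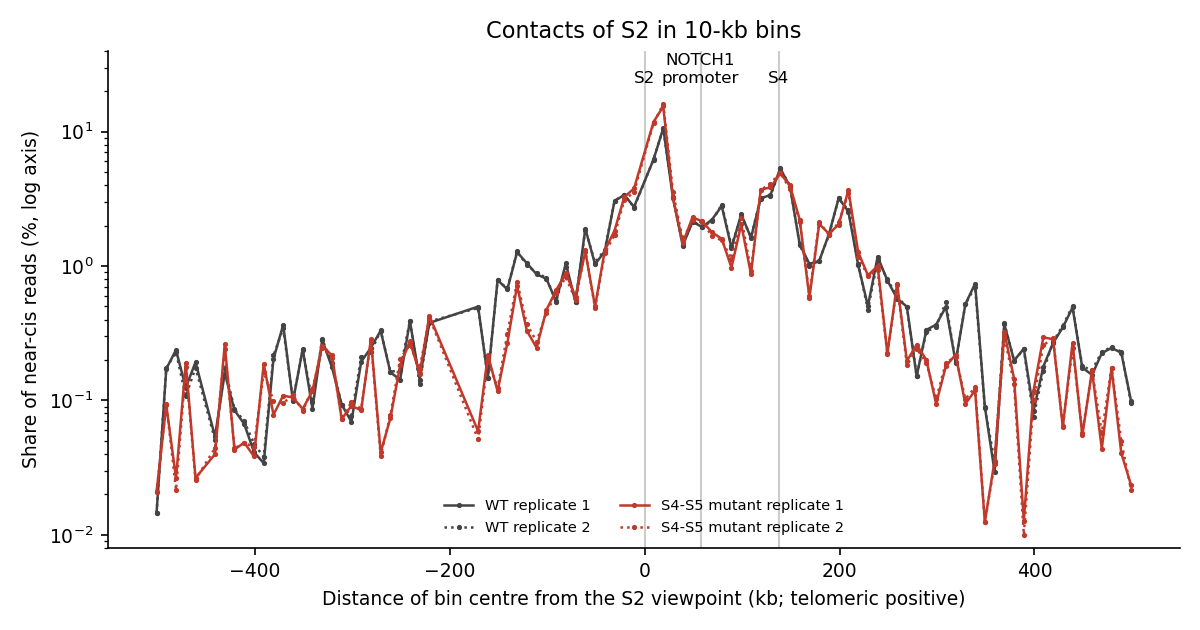
Share of near-cis reads per 10-kb bin (percent, log y axis) against the distance of the bin centre from S2 (kb, x axis, telomeric positive) for the 2 WT and 2 S4-S5 mutant libraries. The mutant lines run above WT from 5 to 25 kb telomeric of S2, run with WT around the promoter and S4, and lie mostly below it beyond 250 kb and from 100 to 200 kb on the centromeric side.

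Bin by bin, both directions of change were frequent. Counts of the near-cis ends in 10-kb bins were compared by the quasi-likelihood F test of edgeR, two-sided, with Benjamini-Hochberg adjustment over all bins and a threshold of 0.05. Of 95 bins, 80 passed (84.2%), of which 27 rose in the S4-S5 mutant (28.4%) and 53 fell (55.8%). Changes of at least 2-fold were found in 28 bins (29.5%), of which 27 fell and 1 rose. Both mutant libraries lay above both WT libraries in 34 bins (35.8%) and below them in 54 (56.8%). The direction of small changes depends on the scaling. With near-cis totals the median bin stood at -0.25 on the log2 scale, and with chromosome 9 totals at 0.05, with TMM factors at 0.09 and with DESeq2 size factors at 0.16. The split was then 43 higher to 40 lower with chromosome 9 totals or TMM factors and 47 to 39 with DESeq2.

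Some regions departed from the shares over all bins, 28.4% higher and 55.8% lower, and others did not. Of 36 bins in the centromeric outer flank, 21 fell and 11 rose (median -0.52), and 13 fell at least 2-fold. Of 27 bins in the telomeric outer flank, 19 fell and 4 rose (median -0.96), and again 13 fell at least 2-fold. Of the 5 bins between S2 and the promoter, 2 rose and 0 fell, and the other 3 did not pass the test. Between the promoter and S4, 3 of 8 bins rose and 5 fell, and in the 100 kb telomeric of S4, 5 of 10 rose and 3 fell. In the 9 bins from 5 to 100 kb centromeric of S2, 2 rose and 5 fell. Calls in this region and in the centromeric outer flank were thus near the shares over all bins.

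**Figure D3:**
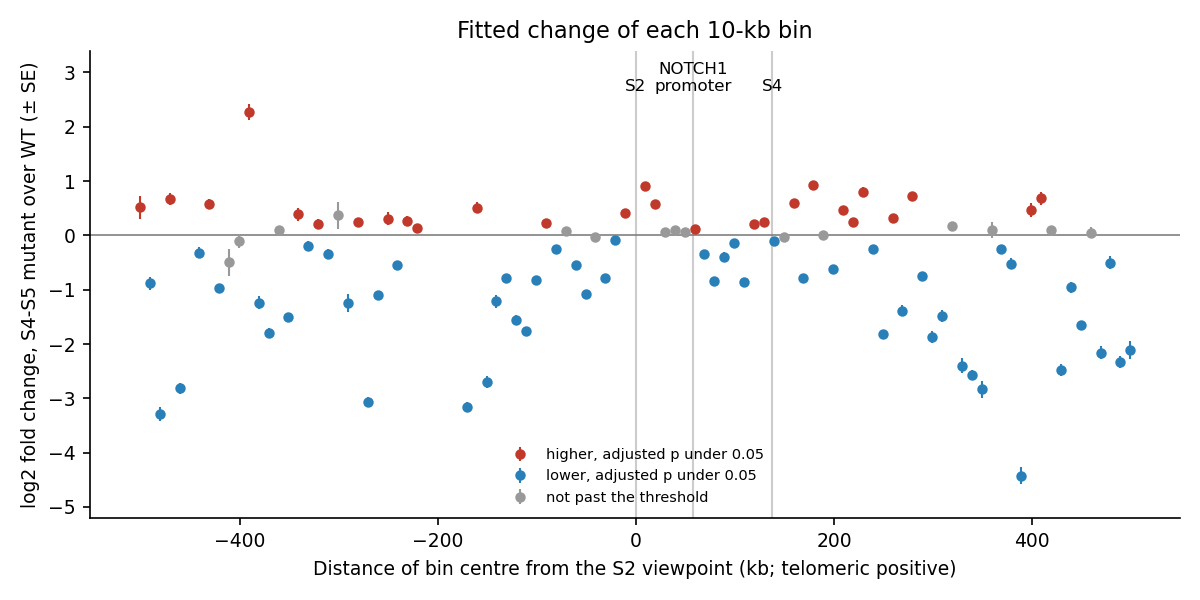
Fitted log2 fold change of each of the 95 near-cis bins, S4-S5 mutant over WT (y axis, with the standard error as a bar), against distance from S2 (kb, x axis, telomeric positive). Red points rose and blue points fell at an adjusted p under 0.05 in edgeR. The 27 falls of at least 2-fold lie at least 50 kb from S2, and 1 bin rose by as much.

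The bins next to S2 carried the largest amounts. The bin at chr9:139390001-139400000, 9.13 kb telomeric of the viewpoint, held 6.20% and 6.22% of near-cis reads in WT and 11.8% and 11.6% in the mutant. It rose 1.88-fold (log2 0.91 ± 0.02 SE, adjusted p = 5.54e-11, edgeR). Of its 32 fragment ends, 15 were higher and 13 lower in both mutant libraries. The next bin, chr9:139400001-139410000, held 10.6% and 10.5% in WT and 15.4% and 16.0% in the mutant (log2 0.57, adjusted p = 1.46e-09, edgeR). Both bins were also higher in the S4-S5 mutant than in the S4 mutant, by 0.11 and 0.15, and than in the S5 mutant, by 0.53 and 0.26 (adjusted p between 7.33e-10 and 0.000531, edgeR).

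At the promoter the size of the difference depended on the scaling. The bin with the promoter viewpoint centre, chr9:139440001-139450000, held 1.95% of near-cis reads in both WT libraries and 2.15% and 2.11% in the mutant. It rose by 0.13 ± 0.03 on the log2 scale (adjusted p = 0.00654, edgeR), 1.09-fold, and stood at 0.43 with chromosome 9 totals, 0.47 with TMM factors and 0.54 with DESeq2. The bin on its centromeric side held 2.13% and 2.17% in WT and 2.31% and 2.19% in the mutant and did not pass the test (log2 0.06, adjusted p = 0.188, edgeR). It did pass with chromosome 9 totals (0.37, adjusted p = 1.02e-05, edgeR), TMM factors (0.41) and DESeq2 (0.48). The bin on its telomeric side fell by 0.34 (adjusted p = 0.000743, edgeR), from 2.22% and 2.17% to 1.78% and 1.68%, but stood at 0.08 with DESeq2 size factors. Over the 20 kb centred on the promoter the share was 3.17% and 3.21% in WT and 3.58% and 3.45% in the mutant (log2 0.14), while over 40 kb the difference was -0.04. The S4 mutant, with a mean of 4.13%, and the S5 mutant, with 4.01%, were higher over the 20 kb than the S4-S5 mutant.

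The contact of S2 with S4 remained the highest peak beyond 50 kb although S4 was mutated. The bin with the S4 viewpoint centre, chr9:139520001-139530000, held 5.32% and 5.29% of near-cis reads in WT and 4.89% and 4.96% in the mutant. It fell by 0.11 ± 0.03 on the log2 scale (adjusted p = 0.00435, edgeR) with near-cis totals and stood at 0.20 with chromosome 9 totals. Its telomeric neighbour held 3.92% and 3.97% in WT and 3.98% and 3.74% in the mutant, overlapping (log2 -0.03, adjusted p = 0.461, edgeR), a value that was 0.27 with chromosome 9 totals. The 2 bins on its centromeric side, from 139500001 and from 139510001, rose by 0.21 and 0.24 (adjusted p = 2.61e-05 and 0.000339, edgeR). The 20 kb centred on S4 held 9.83% and 9.71% in WT and 10.86% and 11.05% in the mutant (log2 0.17), while the 10 kb centred on it differed by -0.06.

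Because more reads lay close to S2 in the mutant, the distal contacts were also expressed as shares of the reads beyond 50 kb, a scale chosen after seeing these data. On that scale the 20 kb around S4 held 14.9% and 14.7% in WT and 19.3% and 19.7% in the S4-S5 mutant, 1.31 times as much. The 20-kb window around the promoter starts 48.0 kb from S2, so only its part beyond 50 kb was counted on this scale. That part held 4.42% and 4.47% in WT and 6.24% and 6.03% in the mutant, 1.38 times as much. This ratio does not cover the whole window. The outer centromeric flank remained lower, at 16.1% and 16.2% in WT and 10.5% and 10.6% in the mutant. On this scale the single mutants had means of 17.8% (S4), 18.6% (S5) and 20.4% (S2) around S4, the last above the S4-S5 mutant. In the counted part of the promoter window their means were 7.27% (S4), 6.66% (S5) and 6.53% (S2), all above the S4-S5 mutant.

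Past S4, both rises and falls were found among the bins. The bin at chr9:139560001-139570000, 179 kb from S2, held 1.09% and 1.10% in WT and 2.06% and 2.13% in the mutant, and rose 1.91-fold (log2 0.93 ± 0.07, adjusted p = 3.64e-07, edgeR). The S5 mutant had a mean of 2.07% there, a log2 difference of 0.02 ± 0.07 SE that did not pass the test (adjusted p = 0.812, edgeR), and the S4 mutant was lower (mean 1.12%, difference 0.91, adjusted p = 4.99e-07, edgeR). The bin at chr9:139540001-139550000, 159 kb from S2, rose from 1.45% and 1.44% to 2.22% and 2.14% (log2 0.59, adjusted p = 4.2e-08, edgeR), and here the S4-S5 mutant exceeded both single mutants, by 0.36 over S4 and 0.48 over S5. The bin at chr9:139580001-139590000, one of the 5 highest beyond 50 kb in WT, fell from 3.20% and 3.19% to 2.04% and 2.11% (log2 -0.62, adjusted p = 3.01e-08, edgeR). It was nevertheless higher than in the S4 mutant (mean 1.63%, adjusted p = 4.58e-06, edgeR) and the S5 mutant (mean 1.82%, adjusted p = 0.000544, edgeR).

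Against the single mutants the S4-S5 mutant differed in most bins, in both directions. Against the S4 mutant, 84 of 95 bins passed the edgeR test (88.4%), with 43 higher (45.3%) and 41 lower (43.2%), and 31 changed at least 2-fold (32.6%). Against the S5 mutant, 85 passed (89.5%), with 44 higher (46.3%) and 41 lower (43.2%), and 39 changed at least 2-fold (41.1%). In the 100 kb telomeric of S4, 9 of 10 bins were higher in the S4-S5 mutant than in the S4 mutant and 0 lower, and 7 were higher and 1 lower than in the S5 mutant. From 5 to 100 kb centromeric of S2, 7 of 9 bins were lower than in the S4 mutant and 1 higher, against 3 lower and 5 higher than in the S5 mutant. In the telomeric outer flank, 17 of 27 bins were higher and 6 lower than in the S4 mutant, and 10 were higher and 15 lower than in the S5 mutant.

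The 8 largest falls lay between 151 and 481 kb from S2, on both sides. The bin at chr9:139770001-139780000, 389 kb telomeric, held 0.243% and 0.240% of near-cis reads in WT and 0.0128% and 0.0100% in the mutant, a 21.4-fold fall (log2 -4.42 ± 0.16, adjusted p = 8.41e-10, edgeR). In the mutant, 96.5% of its reads lay at 1 fragment end, against 22.5% in WT. The other 7 of the 8 largest falls ranged from 5.91-fold to 9.78-fold and started at 138900001, 138920001, 139110001, 139210001, 139230001, 139720001 and 139730001. In all 8 bins the means of the S4, S5 and S2 mutants were below WT too. In all but that from 139230001, a single mutant was below the S4-S5 mutant. In the bin from 139720001 the means were 0.721% in WT, 0.122% in the S4-S5 mutant, 0.315% in S4, 0.00185% in S5 and 0.00336% in S2. The only rise past 2-fold, at chr9:138990001-139000000, 391 kb centromeric, went from 0.0341% and 0.0379% to 0.187% and 0.163% (4.84-fold), with 54.7% of its mutant reads at 1 end. It was not above WT among the non-blind ends alone, the ends of fragments that the second enzyme cuts (log2 -0.17). In 25 of 95 bins, 1 end held over 50% of the mutant's reads, against 16 bins in WT.

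The reads of the S4-S5 mutant came from fewer fragment ends. Thinned to 499045 near-cis reads, WT libraries reached 1853 and 1833 of the 3240 ends and the mutant libraries 1176 and 1187, a log2 difference of -0.64. The groups did not overlap, and the S4 mutant (mean 1271), the S5 mutant (1055) and the S2 mutant (1172) were below WT too. The 10 most covered ends carried 10.3% and 10.2% of near-cis reads in WT and 16.4% in both S4-S5 mutant libraries. The single mutants were above WT too, at 14.3% in both S4 libraries, 15.6% and 15.5% in S5 and 23.9% and 23.6% in S2. Of the 100 most covered ends of each group, 54 were shared, 54% of each list. In both WT libraries and neither S4-S5 library a read was found at 416 ends, and at 43 ends in both S4-S5 libraries and neither WT library, although the S4-S5 libraries were deeper.

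The difference in ends covered was unequal along the locus. At the same depth, the centromeric outer flank had 40.5% of its ends covered in WT and 21.5% in the mutant, and the telomeric one 42.0% and 22.4% (means of 2 libraries). The S2-to-promoter stretch had 82.4% of ends covered in WT and 68.2% in the mutant, and the 20 kb around S4 96.5% and 71.8%. Whether the smaller number of ends, which the single mutants share, has a part in the differences between bins was not tested. With covered ends as the counts, 0 of 95 bins passed the edgeR test, with 1 at an unadjusted p under 0.05.

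**Figure D4:**
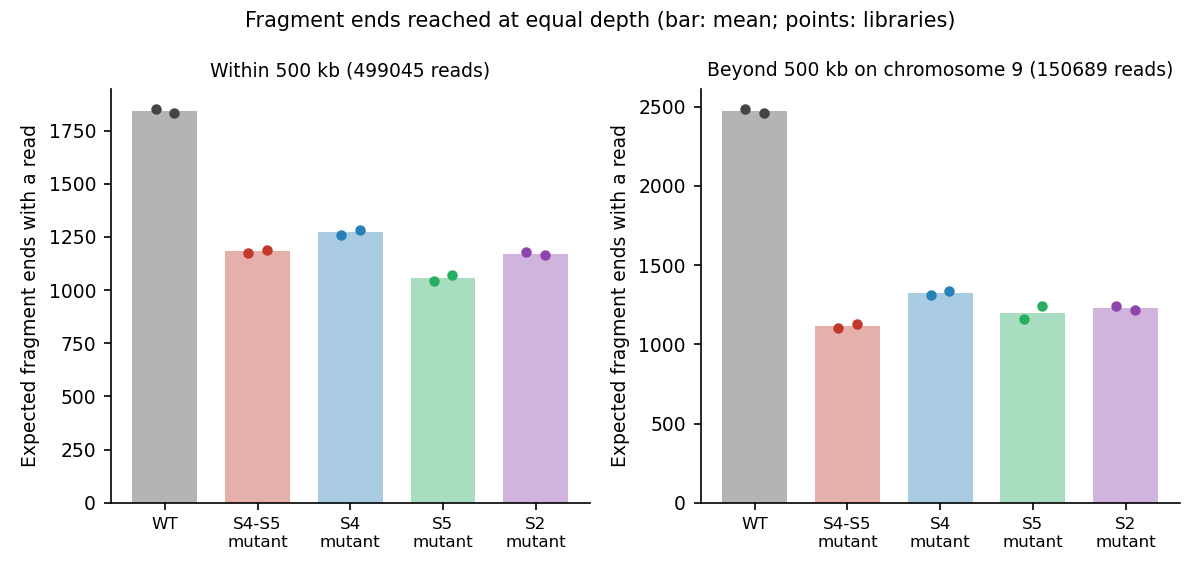
Expected number of fragment ends with a read (y axis) after thinning every S2-viewpoint library to 499045 near-cis reads (left) or 150689 far-cis reads (right). Bars are means of 2 libraries and points are libraries. The WT bars stand above all 4 mutant genotypes in both panels, and the S4-S5 mutant reached 1182 near-cis and 1116 far-cis ends against 1843 and 2474 in WT.

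Beyond 500 kb, the share of reads in the S4-S5 mutant was lower than in WT, and on the centromeric side more so with distance. As a share of chromosome 9 reads outside the mask, the band from 0.5 to 1 Mb on the centromeric side held 3.38% in both WT libraries and 2.54% and 2.45% in the mutant. The band from 5 to 10 Mb held 5.67% and 5.73% in WT and 2.28% and 2.17% in the mutant, and the part of the same arm over 20 Mb away held 6.13% and 6.06% against 1.12% and 1.05%. The other chromosome arm held 2.18% and 2.21% in WT and 0.0995% and 0.0920% in the mutant, a log2 difference of -4.52. In that arm the means were 0.184% for the S4 mutant, 0.204% for S5 and 0.766% for S2, so the S4-S5 mutant was the lowest of the 5 genotypes there. It was not the lowest in any other band beyond 500 kb, where a single mutant always had a lower mean. Over 20 Mb away on the same arm, for example, the means were 1.08% for the S4-S5 mutant, 0.793% for S4, 1.67% for S5 and 0.271% for S2. On the telomeric side, the band from 0.5 to 1 Mb held 2.84% and 2.92% in WT and 2.26% and 2.28% in the mutant.

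**Figure D5:**
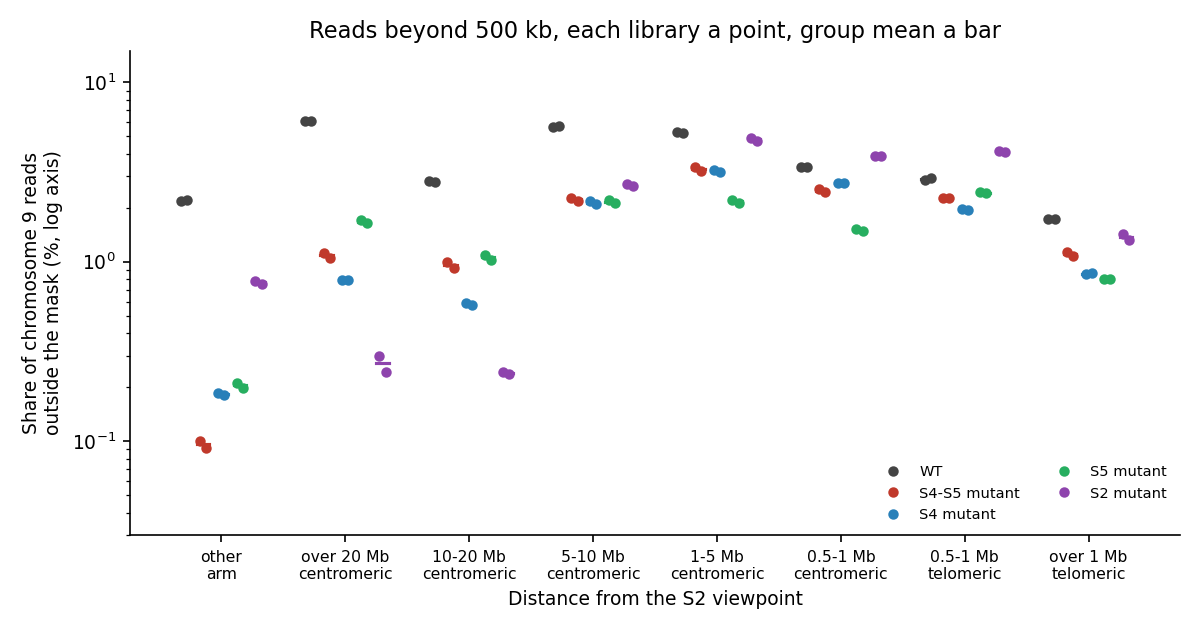
Share of chromosome 9 reads outside the mask (percent, log y axis) in 8 distance bands beyond 500 kb of S2 (x axis) for the 10 libraries, each a point, with the group mean as a bar. WT is above the S4-S5 mutant in all 8 bands, with the widest gap in the other arm (2.20% against 0.0958%).

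Among far-cis bins of 1 Mb, scaled to the far-cis total, 91 of 96 passed the edgeR test (94.8%), of which 18 were higher in the S4-S5 mutant (18.8%) and 73 lower (76.0%), and 64 differed at least 2-fold (66.7%). Both mutant libraries lay above both WT libraries in 20 bins (20.8%) and below them in 75 (78.1%). With chromosome 9 totals 2 were higher and 89 lower, with TMM factors 32 and 57, and with DESeq2 41 and 50. Within 5 Mb of S2, 7 of 8 bins were higher and 1 lower on the far-cis scale, and over 20 Mb away 7 of 73 were higher and 64 lower. In 6 bins, all over 20 Mb away, neither mutant library had a read. Against 3 reads summed over the pair, taken as the floor, these were at least 156-fold to at least 666-fold lower than in WT. The single mutants had few reads in these bins too, at most 25 in a library (S5 mutant replicate 1, bin from 32000001). The bin from 7000001 held 674 and 772 reads in WT, 1 and 5 in the S4 mutant, 3 and 2 in S5 and 0 and 1 in S2. The WT reads of these 6 bins lay at few fragment ends, from 1 in the bin from 26000001 to 6 in that from 2000001. Their most covered end held from 49.6% (bin from 76000001) to 100% (from 26000001) of the WT reads. In the bin with the 666-fold value, from 7000001, it held 94.5%. Among the rises, the last bin of the chromosome, from 141000001, had 7 reads in WT and 1047 in the mutant, of which 99.5% lay at 1 fragment end. In 53 of the 96 bins, 1 end held over 50% of the mutant's reads, against 30 in WT.

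The same genotypes were also viewed from the other ends of these contacts, and some intervals differed in direction from the S2 view. These are other libraries, and the intervals were chosen after seeing the S2 data. Near-cis here means 5 to 500 kb from the viewpoint used, so totals and outer intervals differ between viewpoints. The part over 100 kb telomeric of S4 held 919 ends from S2, 980 from the promoter and 1427 from S4. The part over 100 kb centromeric of S2 held 1167, 967 and 736. From the S4 viewpoint, the 5 to 25 kb telomeric of S2 held 7.77% and 7.96% of near-cis reads in WT and 10.2% and 10.1% in the S4-S5 mutant. From the promoter viewpoint the same interval held 7.82% and 7.86% in WT and 6.49% and 6.82% in the mutant, the opposite direction. In this interval the single mutants were all below WT from S4, with means of 5.00% (S4), 7.17% (S5) and 5.28% (S2). Their means from the promoter were 7.77% (S4), 8.22% (S5) and 7.44% (S2), so that only the S5 mutant was above WT. From S4, the 20 kb centred on S2 is the reciprocal of the S2 contact with S4. It held 8.22% and 8.15% in WT and 12.7% and 12.9% in the S4-S5 mutant, 1.56 times as much. The S4 mutant (mean 10.5%) and the S5 mutant (12.4%) were above WT there too, and the S2 mutant (6.66%) was below it. From the promoter, the 20 kb centred on S2 held 5.58% and 5.59% in WT and 5.66% and 5.71% in the mutant. The 100 kb telomeric of S4 was not highest in the S4-S5 mutant from either. From the promoter it held 11.45% and 11.53% in WT and 11.27% and 11.26% in the mutant, with a mean of 12.2% in the S5 mutant. From S4 it held 20.5% and 20.6% in WT and 21.1% and 21.4% in the mutant, with 23.0% in the S5 mutant and 22.2% in the S2 mutant. The 5 to 100 kb centromeric of S2 was lower in the mutant from both, with means of 9.73% against 5.94% from the promoter and 17.7% against 15.7% from S4. The part over 100 kb centromeric of S2 was also lower from both. From the promoter it held 9.43% in both WT libraries and 5.19% and 5.22% in the S4-S5 mutant. The single mutants were below WT too, with means of 7.06% (S4), 4.61% (S5) and 7.82% (S2). From S4 it held 10.7% and 10.8% in WT and 6.84% and 6.79% in the S4-S5 mutant. There the S4 mutant (13.2%) and the S2 mutant (15.7%) were above WT, and the S5 mutant (6.70%) was near the S4-S5 mutant. The part over 100 kb telomeric of S4 was lower in the S4-S5 mutant, with means of 8.89% against 5.33% from the promoter. From S4 the means were 9.54% against 5.93%. The single mutants were below WT there too, from both viewpoints.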

How the data were processed

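The members of this comparison, the regions and the bins were chosen with earlier results of these data known. Per the labels' protocols, chromatin fixed for 10 min in 2% formaldehyde was digested by DpnII (3 rounds) and ligated, a second cut by NlaIII or CviQI and a second ligation followed, and 200 ng went into 16 cycles of a first PCR before sequencing (150-bp reads). Per the file headers, the authors deposited whole read counts per fragment end of chromosome 9. The submitters' processing notes name hg19 and deepTools, and no aligner or read filter was given in the sources used here. Scaled and smoothed columns were not used.

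The viewpoint centre is that of the 5-kb window with most reads. Ends within 5 kb were masked. Counts were summed in 10-kb bins within 500 kb and 1-Mb bins beyond, with a mean of at least 10 reads per library. edgeR 4.0.16 in R 4.3.3 fitted all 10 libraries of the S2 viewpoint, with near-cis or far-cis totals as library sizes, and was tested on simulated data. The simulation gave every library the same spread. It therefore cannot show how the calls hold under the unequal spread of these groups. Over bins, chi-square per degree of freedom between libraries was 1.83 in WT and 34.7 in the S4-S5 mutant. DESeq2 1.42.0 was an alternative. The bins named were the 8 largest rises and 8 largest falls past the threshold whose libraries did not overlap, the bins of the promoter and S4 with their neighbours, and the 5 highest WT bins beyond 50 kb; of far-cis bins, the 5 largest in each direction. The bins from 139400001 and those counted by region fall outside this rule. Numbers of ends reached were computed exactly for thinning to the smallest library. The distance bands, shares beyond 50 kb and other viewpoints were added after seeing the data. No hg19 genome or annotation was used, so ends were not assigned to exons or introns.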

Additional observations from a re-analysis of the deposited data

How the results depend on the processing

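Leaving out 1 library in turn, the share of near-cis bins higher than in WT ranged from 22.1% to 26.3%, and lower from 50.5% to 52.6%. Against the S4 mutant the ranges were 42.1% to 44.2% and 41.1% to 43.2%, against the S5 mutant 44.2% to 46.3% and 38.9% to 43.2%, and for far-cis bins against WT 15.6% to 16.7% and 74.0% to 76.0%. No region share changed sign in this way. With the replicate number as a block, 25 near-cis bins were higher than in WT and 53 lower, and no named bin changed its call. Same-numbered WT and S4-S5 libraries deviated together with a correlation of 0.26 over 95 bins, but the number has no stated meaning.

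Scaling moved the counts. Near-cis bins higher than in WT were 45.3% with chromosome 9 totals and with TMM factors and 49.5% with DESeq2. Far-cis bins higher than in WT were 2.08% with chromosome 9 totals, 33.3% with TMM factors, 42.7% with DESeq2 and 11.3% in 2-Mb bins. With covered ends as the counts, 0 near-cis bins passed in either direction against WT, the S4 mutant or the S5 mutant, and of far-cis bins 0 were higher and 0.971% lower. At an unadjusted p under 0.05 there were 1, 2, 0 and 9 such bins. The numbers of ends per bin are small, and this limits that test. With the S2 mutant as reference in place of WT, 63.2% of near-cis bins were higher and 35.8% lower, and of far-cis bins 45.8% and 19.8%.

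Of the region shares, the 5 to 100 kb centromeric of S2 changed sign with chromosome 9 totals (0.12), TMM factors (0.16), DESeq2 size factors (0.24) and covered ends (0.042). The promoter-to-S4 stretch did so with chromosome 9 totals (0.16), TMM (0.20), DESeq2 (0.28), a 20-kb mask (0.0057), non-blind ends (0.0042), covered ends (0.12) and the S2 mutant as reference (0.095). Against the S2 mutant the S2-to-promoter stretch stood at -0.040, the telomeric outer flank at 0.27 and the ends covered at 0.012. The promoter window stood at -0.039 over 40 kb and the S4 window at -0.057 over 10 kb. The cause of these changes was not tested.

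Of the named near-cis bins, named here by their start, that from 139520001 turned positive with chromosome 9 totals (0.20), TMM (0.24), DESeq2 (0.31), non-blind ends (0.21), capped ends (0.023), covered ends (0.13) and a 20-kb mask (0.040). That from 139530001, not past the threshold, turned positive with the same settings in that order, at 0.27, 0.31, 0.38, 0.80, 0.010, 0.15 and 0.11. It also did so in a 1-Mb window (0.013) and against the S2 mutant (0.032), and leaving out 1 library in turn it ranged from -0.079 to 0.011, positive without S4-S5 replicate 2. The bin from 139450001 stood at 0.0021 with TMM, 0.075 with DESeq2, 0.18 with covered ends and 1.53 against the S2 mutant. The bin from 139430001 stood at -0.0052 in a 250-kb window.

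Non-blind ends reversed the bins from 138990001 (-0.17) and 139790001 (-0.086). Covered ends reversed those from 138990001 (-0.18), 139610001 (-0.20), 139790001 (-0.18), 139770001 (0.12), 139210001 (0.010) and 139580001 (0.045). Against the S2 mutant, reversals were found at 139660001 (-1.73), 139770001 (3.30), 139210001 (4.07), 139110001 (4.22), 139730001 (3.98), 138920001 (3.87) and 139720001 (5.19). The same held at 139440001 (-0.17), 139500001 (-0.31) and 139580001 (1.23). Of the far-cis rises, covered ends reversed those from 92000001 (-0.63), 98000001 (-0.032), 80000001 (-0.31) and 19000001 (-0.96), and chromosome 9 totals those from 80000001 (-0.045) and 19000001 (-0.11). Of the other values of named bins under these settings, 453 kept direction and call, 29 lost the call and 8 gained it. At equal depth the mutant libraries reached fewer ends, so the number of ends, besides depth, limits the precision of single bins.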
